A study of Caenorhabditis elegans with 48 samples.

Results

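The heat shock response of Caenorhabditis elegans was examined in animals in which degron-tagged HSF-1 was exposed to auxin in the soma, by comparing 3 heated with 3 unheated libraries of strain JTL611 from auxin plates. These are 6 of the 48 libraries of the study. All 12640 genes in the deposited table of this strain belong to the comparison, and 12010 of them, averaging 1 CPM (reads per 1e6 reads) or more over the 12 JTL611 libraries, were tested. The other 630 were too low to test.

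JTL611 carries hsf-1::aid::gfp on chromosome I, the transgene ieSi57, in which the eft-3 promoter drives TIR1::mRuby with an unc-54 3′ end and a Cbr-unc-119(+) marker, on chromosome II and unc-119(ed3) on chromosome III. The reference strain CA1200 carries the same TIR1 transgene and the same unc-119 allele with untagged hsf-1. TIR1 is a plant F-box protein that sends proteins bearing the aid tag to the proteasome when auxin is present, and in both strains its tissue is given as the soma. The germline therefore lies outside the reach of the transgene, while RNA came from whole animals, and no file used here measures how much HSF-1 protein remained. Young adult worms grown for 51 h spent 2 h on auxin plates or on control plates with its solvent, ethanol. The unheated animals were then collected at once, and the heated ones spent another 30 min in a water bath at 34 °C, so they were also collected 30 min later. The culture temperature of the unheated animals was 20 °C. Each of the 6 groups used below had 3 libraries of poly(A)-selected RNA: heated and unheated JTL611 on auxin, heated and unheated JTL611 on ethanol, and heated and unheated CA1200 on auxin. Replicates were numbered, but nothing states that they came from separate cultures, so p-values measure the spread between these libraries, which may be technical.

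Heat shock factor 1 is the conserved transcription factor that binds heat shock elements when proteins misfold, and in the worm it drives the genes for small heat shock proteins (hsp-16 family) and inducible Hsp70 chaperones. Heat also changes many other transcripts, including those of metabolism and of the gut, through routes that need not involve HSF-1. The comparison asks which of the transcript changes of heat shock were still present on auxin. The hsf-1 transcript itself (chromosome I, 11953507 to 11963085 of WBcel235) stood at 37.8, 43.4 and 37.6 CPM in the unheated auxin libraries and at 40.5, 43.1 and 34.98 CPM in the heated ones. The groups overlapped, with a log2 fold change of -0.01 (SE 0.18; limma adjusted p = 0.992). Because the degron acts on the protein, this level says nothing of depletion.

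Depth was similar across the 12 JTL611 libraries, at 13485599 to 18543130 reads on listed genes. A gene with 0 reads could hold up to 3, which is 0.154 to 0.221 CPM depending on the library. Intervals and floors of this kind cover counting error only. Ribosomal RNA genes took 9.93% to 13.05% of the reads in the heated auxin libraries and 5.58% to 9.13% in the unheated ones, without overlap, although the libraries were poly(A)-selected. What part this share has in the results was not tested. All 7 marker lists of tissues (intestine, neurons, pharyngeal muscle, body wall muscle, epidermis, sperm and germ granules) had most of their members in the table, and no listed marker was at 0 in all 6 auxin libraries.

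Heat still changed 917 genes on auxin: 269 were higher (2.24% of those tested) and 648 lower (5.4%), by limma on log2(CPM + 1), where called means an adjusted p under 0.05. The fold changes here are on that scale, which understates changes of low genes. The shares of 2.24% and 5.4% are the ones to set beside each list count below. In all 917 the heated and unheated libraries did not overlap; over all tested genes, 1832 (15.3%) had every heated library above every unheated one and 2198 (18.3%) had every one below. The median log2 fold change was 0.87 among the higher genes and -0.73 among the lower ones, and 111 genes rose and 111 fell by at least 1. With replicate number as a block the count was 1471 (389 higher, 1082 lower). It was 553, 511 and 584 without heated replicate 1, 2 or 3, and 648, 447 and 515 without unheated replicate 1, 2 or 3.

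On ethanol plates, without auxin, heat raised 278 genes (2.31%) and lowered 501 (4.17%). No library is shared between the 2 plate types. Both heat changes came from the same fit, however, with a shared estimate of the spread of each gene. Deviations of same-numbered libraries also correlated between the plate types, at 0.664, 0.620 and 0.306 unheated and 0.427, 0.438 and 0.0992 heated. The lists compared next are therefore not fully separate evidence. Of the genes raised on auxin, 206 were also raised on ethanol, which is 76.6% of the auxin list and 74.1% of the ethanol list. Of those lowered on auxin, 391 were also lowered on ethanol, which is 60.3% and 78.0% of the lists. All 269 and all 648 had the same sign on ethanol, and 0 were called in the opposite direction. The difference between the plate types was itself called for 24 genes (0.2%), each with a lower response on auxin; 123 genes had an unadjusted p under 0.05. Of the 269 genes that rose on auxin, 257 were not among those 24. A missed threshold does not show that their responses were equal.

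**Figure D1:**
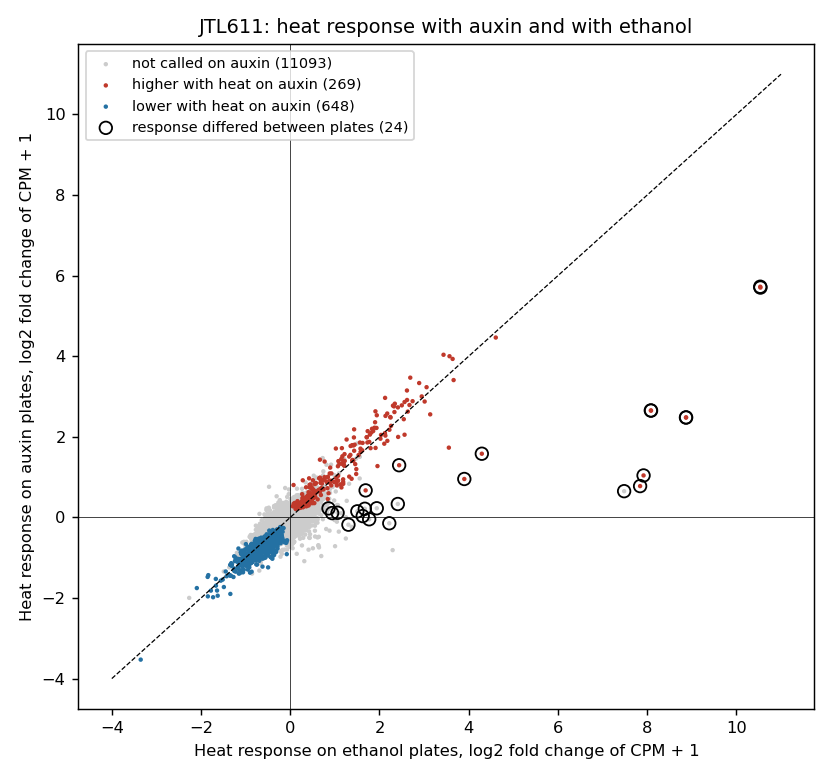
Log2 fold change of CPM + 1 with heat on auxin plates (vertical) against the same on ethanol plates (horizontal) for the 12010 genes tested in JTL611; the dashed line marks equal responses. Most of the 917 coloured genes lie along the line, while the 24 circled genes, whose response differed between plates, all lie below it.

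The inducible heat shock protein genes kept a small part of their response. F44E5.4 (chromosome II, 11757107 to 11759311), an inducible Hsp70 gene, was at 1.18, 0.369 and 0.281 CPM in unheated and 74.7, 77.1 and 94.8 CPM in heated auxin libraries. Every heated library was far above every unheated one, by a log2 fold change of 5.73 (SE 0.25; limma adjusted p = 1.38e-07). On ethanol the same gene went from 3.596 ± 1.69 to 6486 ± 296 CPM (SD, n = 3), so its heated level on auxin was 1.27% of that on ethanol. Its neighbour and near-identical copy F44E5.5 gave almost the same reads, with 5.70 (SE 0.25).

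The small heat shock protein genes hsp-16.1 and hsp-16.48, whose products hold unfolding proteins in a soluble state, lie next to each other on chromosome V. In unheated auxin libraries hsp-16.1 was at 0.214, 0.148 and 0.225 CPM, and in heated ones at 4.94, 4.93 and 7.37 CPM. Its log2 fold change of 2.48 (SE 0.20; limma adjusted p = 1.33e-05) compared with 8.87 on ethanol, where it reached 752 ± 228 CPM (SD, n = 3). For hsp-16.48 the values were 0.214, 0.148 and 0.0563 CPM without heat and 6.68, 4.997 and 6.97 CPM with it, a log2 fold change of 2.65 (SE 0.23). The copies hsp-16.11 and hsp-16.49 shared these values within a few reads, and reads cannot be assigned with certainty within a pair, so the 9 genes of the list are not 9 separate measurements.

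Another 3 members were close to the detection floor on auxin even after heat. Transcripts of hsp-70, the other inducible Hsp70 gene, were at 0.107, 0.221 and 0.0563 CPM without heat and 1.67, 1.08 and 1.25 CPM with it, a log2 fold change of 1.04 (SE 0.17; limma adjusted p = 0.00254). No read of hsp-16.41 was found in any unheated auxin library, and heated ones held 0.899, 0.633 and 0.624 CPM, which is at least 3.91-fold higher than the floor of 3 reads per library. Its call (limma adjusted p = 0.0427) was lost without any 1 of the 6 libraries, with an adjusted p of up to 0.141. For hsp-16.2 the heated libraries held 0.706, 0.633 and 0.680 CPM against 3 reads in all over the unheated ones, and it was not called (limma adjusted p = 0.0844). These 3 genes had a mean under 1 CPM over the auxin libraries and were tested because of their levels on heated ethanol plates.

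In all, 8 of the 9 genes rose on auxin, with a median log2 fold change of 2.48 (also 2.48 with hsp-16.41 at its bound, against -0.0031 over all tested genes) and 8.09 on ethanol. Heated levels on auxin were between 0.291% and 1.33% of those on ethanol. All 9 were among the 24 genes with a lower response on auxin (7 of them with limma-voom, which did not call hsp-16.48 and hsp-16.49), the difference being -6.88 (SE 0.24) for hsp-70 and -4.81 (SE 0.36) for F44E5.4. Unheated F44E5.4 was at 0.610 ± 0.495 CPM on auxin and 3.596 ± 1.69 CPM on ethanol (SD, n = 3).

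**Figure D2:**
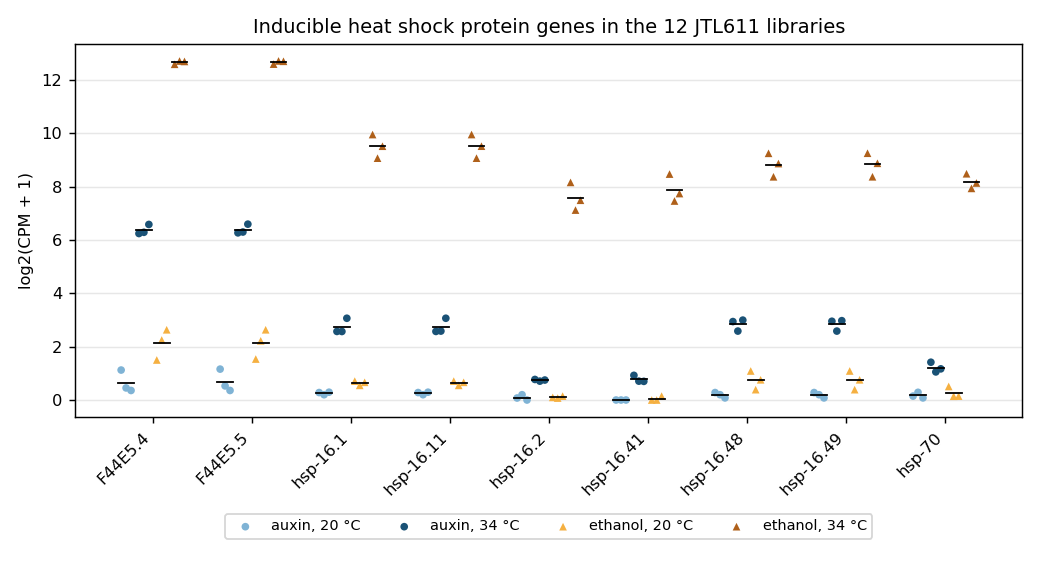
Log2(CPM + 1) of the 9 inducible heat shock protein genes in each of the 12 JTL611 libraries, with a bar at the mean of the 3 points of a group. Heated auxin libraries (dark blue) lie above unheated ones for every gene and far below heated ethanol libraries (brown).

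Few other chaperone genes were called on either plate type. Of 18 cytosolic chaperone and co-chaperone genes 1 rose on auxin, and none fell, with a median log2 fold change of 0.12. On ethanol 3 of the 18 rose and none fell, also with a median of 0.12. The riser on auxin was unc-23, which encodes a BAG-domain co-chaperone of Hsp70. It stood at 23.8, 23.1 and 22.7 CPM without heat and 36.5, 37.4 and 38.7 CPM with it, a log2 fold change of 0.67 (SE 0.11; limma adjusted p = 0.00313), against 1.69 on ethanol. The Hsp110 gene hsp-110 was at 529.5, 585 and 570.4 CPM without heat and 617, 592 and 605 CPM with it, 0.11 (SE 0.09; limma adjusted p = 0.553), where ethanol gave 0.94. The plate difference of unc-23 lost its call without any 1 of the 6 auxin libraries (limma adjusted p up to 0.0853), and that of hsp-110 without heated auxin replicate 1, 2 or 3, unheated auxin replicate 2 or 3 or unheated ethanol replicate 2 or 3 (up to 0.0743; 0.122 with quantile scaling). The developmentally regulated small heat shock protein gene hsp-12.6 was the 1 riser among 9 other small heat shock genes, from 0.641 ± 0.0698 to 2.01 ± 0.320 CPM (SD, n = 3), with 0.87 on auxin and 0.86 on ethanol. By limma none of 33 proteasome, 14 chaperonin and prefoldin, 12 ubiquitin, 79 ribosomal protein or 25 nuclear pore genes was called, with medians of 0.04, 0.14, 0.05, 0.09 and 0.08.

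Another 15 genes had a lower response on auxin than on ethanol. Of the 24, all rose on ethanol, 12 rose on auxin and 12 were not called on auxin. The SCAP-like gene scp-1, whose mammalian relative escorts the sterol regulator SREBP, was at 45.2, 52.4 and 48.05 CPM without heat and 46.4, 48.6 and 45.7 CPM with it, with overlapping groups. On ethanol it went from 50.3 ± 1.77 to 174 ± 17 CPM (SD, n = 3), so the responses differed by -1.82 (SE 0.12; limma adjusted p = 4.59e-06). Beside it on chromosome II, ttll-12, a tubulin tyrosine ligase-like gene, had 0.11 (SE 0.06) on auxin and 1.06 on ethanol. The poly(A) polymerase gene tent-5 had -0.18 (SE 0.12) on auxin and 1.304 on ethanol. R107.5 had 0.23 (SE 0.07; limma adjusted p = 0.07) against 1.94, and nurf-1, a subunit gene of the NURF chromatin remodeller, 0.22 (SE 0.07) against 0.86. The difference of nurf-1 lost its call in 9 of the 12 fits with 1 library fewer (limma adjusted p up to 0.0986).

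Besides 8 heat shock genes and unc-23, 3 of the 24 rose on auxin. The noncoding RNA C30E1.9 (chromosome X, 16929914 to 16944683) was at 47.8, 50.0 and 50.0 CPM without heat and 122, 123 and 122 CPM with it, 1.29 (SE 0.11; limma adjusted p = 2.31e-05), against 2.44 on ethanol. Heated auxin levels were 45.4% of the ethanol level for C30E1.9 and 45.8% for unc-23. The noncoding RNA F57A8.9 reached 2.31, 2.09 and 1.76 CPM from a single read over the 3 unheated libraries, which was 10.9% of its heated ethanol level. R11A5.3 was at 0.589, 0.443 and 0.225 CPM without heat and 1.80, 1.64 and 1.76 CPM with it, 0.95 (SE 0.22; limma adjusted p = 0.0203), or 8.87% of its heated ethanol level. That rise lost its call without heated replicate 1, 2 or 3 or unheated replicate 2 or 3 (limma adjusted p up to 0.0901) and with limma-voom (0.0622). Y38H6C.8, Y56A3A.33, T27E4.1, ptr-18 and WBGene00045366 were not called on auxin, with heated means between 0.266 and 2.96 CPM. Of these, Y38H6C.8, Y56A3A.33, T27E4.1 and ptr-18 averaged under 1 CPM over the auxin libraries and, like hsp-70, hsp-16.2 and hsp-16.41, were tested because of their levels on heated ethanol plates.

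Among the largest rises on auxin were both ribosomal RNAs of the mitochondrial genome. WBGene00014454 (MtDNA, 898 to 1593) was at 38.99, 43.2 and 47.7 CPM without heat and at 867, 1032 and 1031 CPM with it. That is a log2 fold change of 4.46 (SE 0.12; limma adjusted p = 2.23e-09), beside 4.61 on ethanol and 4.37 in CA1200 on auxin. WBGene00014472 (MtDNA, 10403 to 11354) was at 41.4, 59.3 and 50.8 CPM without heat and 502, 529 and 593 CPM with it, 3.41 (SE 0.20), beside 3.66 and 3.27. Of the 12 mitochondrial protein-coding genes none rose and 2 fell, WBGene00010963 by -0.93 (SE 0.11) and WBGene00010967 by -0.61 (SE 0.12). The call of WBGene00010967 was narrowly lost without heated replicate 1 and without unheated replicate 2. In poly(A)-selected libraries a change in the tailing or capture of an RNA and a change in its amount cannot be told apart, and the share of all ribosomal RNA reads was also higher in the heated libraries, as given above.

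Of 71 tested genes annotated as lincRNA or ncRNA, 11 rose (15.5%, beside 2.24% of all tested genes), of which C30E1.9 and F57A8.9 are described above, and 1 fell (none in 5 of the 6 fits with 1 library fewer). None of 11 snoRNA and 3 antisense RNA genes was called by limma. The long noncoding RNA tts-1, known for its abundance in dauer larvae and long-lived mutants, was at 2.52, 2.51 and 2.42 CPM without heat and 45.9, 61.0 and 58.5 CPM with it. Its log2 fold change was 4.00 (SE 0.38; limma adjusted p = 4.56e-05), with 3.57 on ethanol. F09E10.15, a noncoding RNA gene 1460 bases away on the opposite strand of chromosome X and chosen for mention after its values were seen, went from 2.76 ± 0.224 to 21.4 ± 6.89 CPM (SD, n = 3), 2.54 (SE 0.31). The intergenic RNA linc-6 was at 0.536, 0.517 and 0.394 CPM without heat and 13.8, 13.5 and 11.5 CPM with it, 3.23 (SE 0.18). Over protein-coding genes 249 of 11605 rose and 638 fell.

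**Figure D3:**
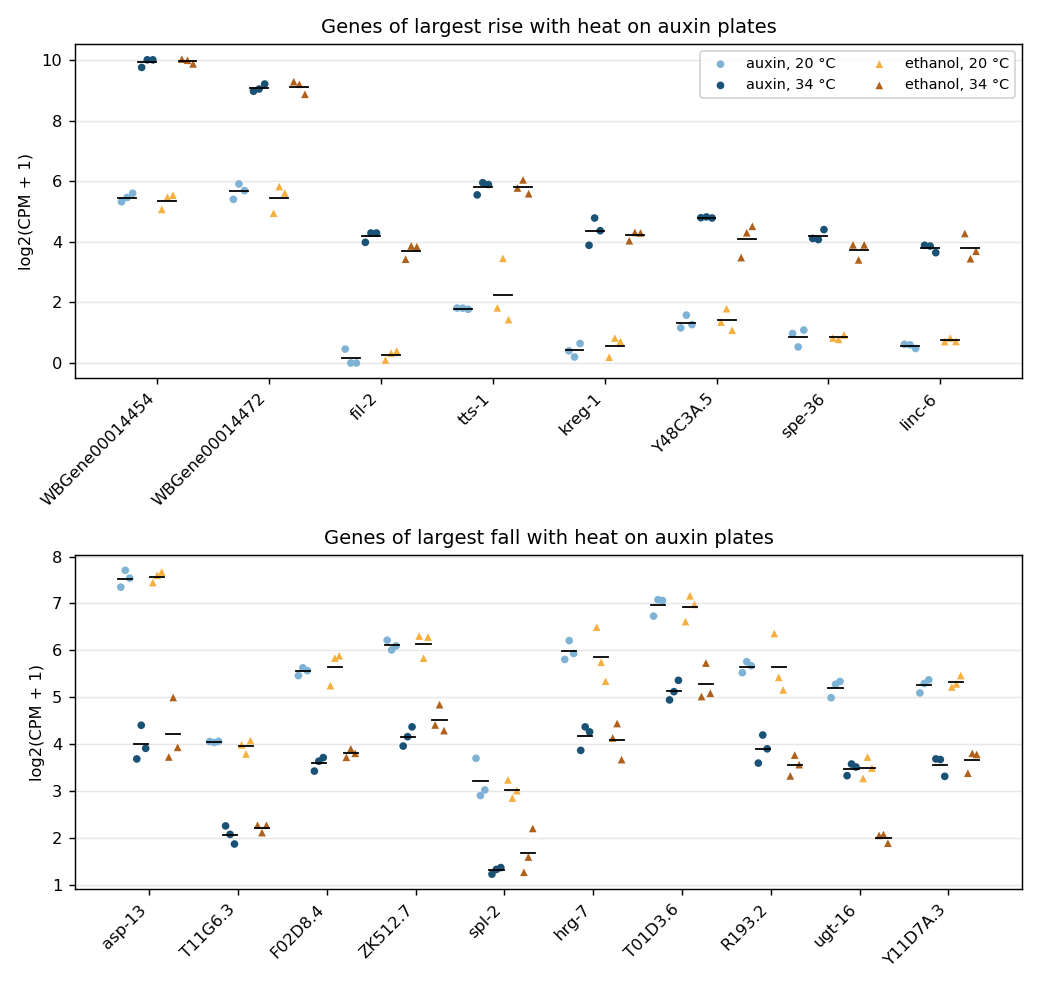
Log2(CPM + 1) in the 12 JTL611 libraries of genes with the largest rises (top) and falls (bottom) on auxin that averaged 5 CPM or more in their higher group without overlapping libraries, the heat shock genes left out; bars mark group means. For each gene the heated auxin libraries (dark blue) lie near the heated ethanol libraries (brown), except ugt-16, which was lower on ethanol with and without heat.

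The protein-coding genes with large rises on auxin were of mixed function. The fasting-induced lipase gene fil-2 was at 0.375, 0 and 0 CPM without heat and 14.8, 18.6 and 18.6 CPM with it, 4.04 (SE 0.18; limma adjusted p = 1.38e-07), with 3.44 on ethanol. The gene kreg-1, named for its regulation by the stress kinase KGB-1, was at 0.321, 0.148 and 0.563 CPM without heat and 13.8, 26.6 and 19.7 CPM with it, 3.93 (SE 0.23). Heated libraries stood well above unheated ones for both genes. Y48C3A.5 rose by 3.47 (SE 0.25), from 1.54 ± 0.399 to 26.9 ± 0.352 CPM (SD, n = 3).

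Of 20 sperm genes tested 2 rose, spe-36, which sperm need to fertilise, by 3.33 (SE 0.18), and spe-49, also needed at fertilisation, by 1.83 (SE 0.17). The list's median was -0.01, and none of the 29 major sperm protein genes was called by limma (median -0.08), so the rise of these 2 was not shared by the sperm lists. In CA1200 spe-36 rose by 2.17, a difference that was not called (limma adjusted p = 0.0652).

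Among 33 stress transcription regulators 4 rose and 1 fell (7 and 3 with the replicate block), where 2.24% of all tested genes rose and 5.4% fell. The bZIP factor gene zip-10, known for its part in cold-induced death of worms, was at 1.23, 3.47 and 3.66 CPM without heat and 23.4, 27.6 and 27.4 CPM with it, 2.91 (SE 0.35; limma adjusted p = 0.000282). The lowest value was that of unheated replicate 1, and the heated libraries were all far above. Rises in this list numbered 2, 1, 1, 1, 3 and 2 without heated replicates 1 to 3 and unheated replicates 1 to 3. In the metal response list of 7, the identical copies numr-1 and numr-2, nuclear proteins induced by metals, rose together by 1.99 (SE 0.18), from 0.404 ± 0.172 to 4.55 ± 0.0124 CPM (SD, n = 3). The metallothionein gene mtl-2 was lower, at 60.8, 45.2 and 64.3 CPM without heat and 28.1, 28.3 and 36.4 CPM with it (limma adjusted p = 0.0143; up to 0.0707, and lost, without heated replicate 1 or 2 or unheated replicate 1 or 3).

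Histone genes rose in 7 of 41 cases and fell in none, with a median log2 fold change of 0.15. With the replicate block 11 rose, and without heated replicates 1 to 3 and unheated replicates 1 to 3 the count was 8, 5, 5, 5, 4 and 6. The H2B gene his-41 was at 23.2, 16.8 and 15.7 CPM without heat and 146, 125 and 112 CPM with it, 2.73 (SE 0.20; limma adjusted p = 6.02e-06). The H2A gene his-35, 247 bases from it on the opposite strand of chromosome V, was at 46.3, 38.9 and 41.5 CPM without heat and 123, 118 and 127 CPM with it, 1.52 (SE 0.16). His-37, 840 bases on the other side of his-41, also rose, by 0.70 (SE 0.14). Most worm histone messages carry no poly(A) tail, so these libraries sample them unevenly. On ethanol 4 histone genes rose, with his-41 at 2.41.

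The largest fall was that of asp-13, which encodes an aspartic protease. It was at 162, 208 and 185 CPM without heat and 11.9, 20.2 and 14.1 CPM with it, a log2 fold change of -3.53 (SE 0.27; limma adjusted p = 1.04e-05). The same gene had -3.35 on ethanol and -3.51 in CA1200 on auxin. T11G6.3 was at 15.6, 15.4 and 15.7 CPM without heat and 3.79, 3.23 and 2.66 CPM with it, -1.98 (SE 0.13). F02D8.4 fell by 1.96 on the log2 scale (SE 0.15), ZK512.7 by 1.94 (SE 0.16), T01D3.6 by 1.82 (SE 0.20), R193.2 by 1.75 (SE 0.26) and Y11D7A.3 by 1.69 (SE 0.14). Also in this group, spl-2, a sphingosine phosphate lyase gene, fell by 1.90 (SE 0.25) and hrg-7, which encodes a secreted aspartic protease-like protein of haem signalling, by 1.82 (SE 0.27). For these 10 largest falls, ugt-16 included, the change on ethanol ran from -3.35 to -1.34.

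Some genes of digestion and of the gut fell after heat on auxin, while most members of these lists were not called. Of 11 aspartic protease genes 4 fell and none rose, with a median of -0.54. The block gave 7, and the counts without heated replicates 1 to 3 and unheated replicates 1 to 3 were 2, 2, 2, 5, 2 and 2. Beside asp-13, the abundant asp-1 was at 2068, 2655 and 2484 CPM without heat and 1282, 1194 and 1507 CPM with it, -0.85 (SE 0.14; limma adjusted p = 0.00213). Of 25 amino acid and peptide transporter genes 8 fell and none rose (median -0.32), and the 6 counts with 1 library fewer were 6 or 7. The intestinal peptide transporter gene pept-1 was at 114, 157 and 138 CPM without heat and 64.8, 75.8 and 67.6 CPM with it, -0.95 (SE 0.11). Its relatives pept-2 and pept-3 fell by 1.27 (SE 0.09) and 1.17 (SE 0.16), and on ethanol the 3 genes had -0.94, -1.25 and -1.101.

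Intestine markers fell in 5 of 14 cases (median -0.37), and none rose. Among the 5 are pept-1 and mtl-2, which the transporter and metal response lists above also count. Their summed level was 2145 to 2342 CPM in unheated and 1563 to 1649 CPM in heated auxin libraries, with act-5, the actin of the gut brush border, at 663, 675 and 728 CPM against 389.6, 343 and 368 CPM (-0.91, SE 0.08; limma adjusted p = 2.27e-05). The gut master regulator gene elt-2 was at 15.5, 18.5 and 19.7 CPM without heat and 13.2, 16.45 and 15.7 CPM with it, with overlapping groups, and was not called (-0.23, SE 0.18). Counts were 3, 3, 5, 4, 4 and 3 without heated replicates 1 to 3 and unheated replicates 1 to 3. In bulk RNA of whole animals, fewer cells of a type and less RNA per cell cannot be told apart.

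Detoxification genes of the UDP-glucuronosyltransferase (ugt) family, which conjugate small molecules, fell in 11 of 50 cases and rose in 3, with a median of -0.52. The block called 23 falls, and the fits with 1 library fewer called 9 to 13. In ugt-16 the unheated auxin libraries were at 30.8, 37.8 and 39.4 CPM and the heated ones at 9.05, 10.9 and 10.4 CPM, -1.73 (SE 0.14; limma adjusted p = 1.33e-05). On ethanol ugt-16 was at lower levels, going from 10.4 ± 1.80 to 3.03 ± 0.279 CPM (SD, n = 3). The difference in level between plates was not tested. The neighbours ugt-14 and ugt-13, 579 bases apart on chromosome V, rose instead. For ugt-14 the values were 0.857, 0.221 and 0.788 CPM without heat and 7.77, 8.603 and 10.5 CPM with it, 2.63 (SE 0.18), and ugt-13 had 0.46 (SE 0.12; limma adjusted p = 0.041), a call lost without any 1 of the 6 libraries (up to 0.156). Of 41 cytochrome P450 genes 5 fell (median -0.15; 3, 2, 5, 5, 3 and 4 without heated replicates 1 to 3 and unheated replicates 1 to 3), and of 28 glutathione S-transferase genes none was called by limma (median -0.08; 1 rose with the block).

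**Figure D4:**
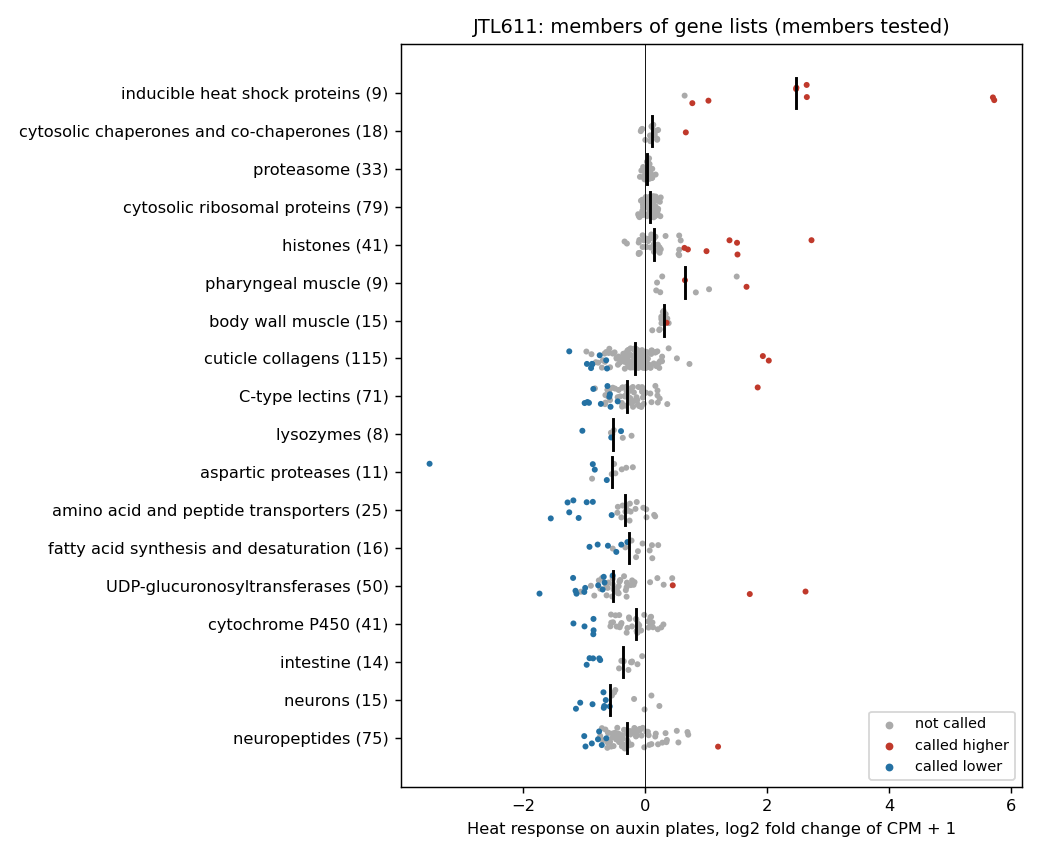
Log2 fold change of CPM + 1 with heat on auxin for the members of 18 gene lists, 1 point per gene, with the number tested in brackets and a black line at the median. Red and blue points were called higher and lower: 8 of the 9 inducible heat shock protein genes are red, 11 of the 50 ugt genes and 8 of the 15 neuron markers are blue, and proteasome and ribosomal protein genes cluster near 0.

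Of 16 fatty acid synthesis and desaturation genes 6 fell (median -0.25; 5, 2, 1, 3, 1 and 2 without heated replicates 1 to 3 and unheated replicates 1 to 3). The elongase gene elo-6 was at 240.1, 227 and 196 CPM without heat and 138, 107 and 108 CPM with it, -0.91 (SE 0.14; limma adjusted p = 0.00214). Of 56 fatty acid breakdown genes 5 fell and 1 rose, where 5.4% of all tested genes fell and 2.24% rose. The acyl-CoA synthetase gene acs-5 of this list was at 101, 109 and 105 CPM without heat and 55.1, 48.6 and 55.2 CPM with it, -0.97 (SE 0.08). Among lists of defence genes, C-type lectin genes fell in 10 of 71 cases and rose in 1 (median -0.29; 20 falls with the block; 6, 7, 8, 11, 6 and 7 with 1 library fewer, in the order used above). Antimicrobial peptide genes had a median of 0.32 over 14 genes, 9 of them higher in value; 1 fell and none rose (4 rose with the block, and the fall was lost without any 1 library). None of 5 genes of the intracellular pathogen response was called by limma (median -0.15; 2 fell with the block). Cuticle collagen genes fell in 8 of 115 cases (6.96%, beside 5.4% of all tested genes) and rose in 2, with a median of -0.16. The falls were 13 with the block and 3, 3, 8, 6, 3 and 2 with 1 library fewer, in the same order. On ethanol none fell and the median was 0.02, with 4 falls with the block and 0 to 3 with 1 library fewer. The plate difference was called for none of the 115. The collagen gene dpy-17, needed for body shape, was at 2.36, 2.14 and 2.36 CPM without heat and 13.5, 11.4 and 12.5 CPM with it, 2.03 (SE 0.14), and bli-1 rose by 1.93 (SE 0.24).

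Neuron markers fell in 8 of 15 cases and none rose, with a median of -0.58. The block called 11, and the counts without heated replicates 1 to 3 and unheated replicates 1 to 3 were 2, 3, 6, 4, 2 and 2, so the number rests on few libraries. The neuronal Ras exchange factor gene rgef-1 was at 1.87, 2.29 and 2.25 CPM without heat and 0.385, 0.506 and 0.624 CPM with it, -1.06 (SE 0.15; limma adjusted p = 0.000859). The dense-core vesicle gene ida-1 was at 23.3, 30.6 and 24.03 CPM without heat and 9.76, 11.4 and 12.8 CPM with it, -1.13 (SE 0.18). The synaptobrevin gene snb-1 was at 118, 112 and 119.2 CPM without heat and 114.9, 126.3 and 108 CPM with it, with overlapping groups. The list's summed level was 289 to 333 CPM without heat and 234 to 256 CPM with it. Neuropeptide genes fell in 7 of 75 cases and rose in 1 (median -0.30), where 5.4% of all tested genes fell and 2.24% rose. With the block 16 fell and 3 rose, and with 1 library fewer, in the order used above, 2, 3, 5, 6, 1 and 3 fell.

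Muscle markers lay on the other side of 0. All 9 pharyngeal muscle markers were higher in value, with a median of 0.66, and 2 rose (5 with the block; 2, 1, 0, 0, 2 and 0 with 1 library fewer, in the order used above). The pharyngeal myosin gene myo-1 was at 13.02, 22.7 and 19.7 CPM without heat and 48.7, 44.7 and 95.6 CPM with it, 1.67 (SE 0.38; limma adjusted p = 0.0188; up to 0.0761 with 1 library fewer). The summed level of the pharyngeal list was 92.0 to 107 CPM without heat and 151 to 330.5 CPM with it, where the highest value was that of heated replicate 3, which also had the largest share of ribosomal RNA. All 15 body wall muscle markers were higher in value, with a median of 0.31 and a range of 0.12 to 0.39, and 1 rose (4 with the block), mlc-1, a myosin light chain gene, by 0.36 (SE 0.08). Without heated replicate 1 or 2 or unheated replicate 1 or 3 none of them was called. Germ granule and oogenesis genes had a median of -0.01 over 28 genes, epidermis markers -0.17 over 7, and of 6 vitellogenin genes none was called by limma (median -0.39).

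Abundant transcripts mostly changed by smaller steps. Next to asp-1, the falling genes of highest level were epic-1, col-159, sec-61.A and glh-1, with log2 fold changes of -0.60 (SE 0.15), -0.63 (SE 0.13), -0.54 (SE 0.13) and -0.33 (SE 0.07). Among rising genes, after the mitochondrial RNA, they were clik-1, mlc-1, unc-87 and tos-1, with 0.35 (SE 0.07), 0.36 (SE 0.08), 0.35 (SE 0.09) and 1.40 (SE 0.21). The splicing reporter gene tos-1 was at 279, 185 and 181 CPM without heat and 550.4, 497 and 629.7 CPM with it. Of these genes tos-1, asp-1 and WBGene00014454 were called without any 1 library; the others lost the call in at least 1 such fit.

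The same heat shock on auxin was compared with that of CA1200, whose HSF-1 has no degron, in a joint fit of 24 libraries over 11788 genes. The response differed for 46 genes, being lower in JTL611 for 41 (0.348%) and higher for 5 (0.0424%). All 41 rose in CA1200, and 14 of them also rose in JTL611. Several of the 41 averaged under 1 CPM over the JTL611 auxin libraries, among them hsp-70, hsp-16.2, hsp-16.41, Y38H6C.8, Y56A3A.33, T27E4.1 and ptr-18. These named genes were tested because they were high in heated libraries of other groups. Their place among the 41 was thus partly set by the filter. All 24 genes with a plate difference were among the 41; both comparisons use the heated and unheated JTL611 auxin libraries, so they are not separate evidence. After heat, hsp-70 reached 807 ± 58.9 CPM in CA1200 and 1.33 ± 0.306 CPM in JTL611 (SD, n = 3), a difference in response of -8.17 (SE 0.44; limma adjusted p = 7.2e-11). For hsp-16.2 it was -7.62 (SE 0.33), for hsp-16.41 -7.56 (SE 0.41), for hsp-16.1 -6.32 (SE 0.37) and for hsp-110 -1.54 (SE 0.11). Within JTL611 the plate differences were -6.88 for hsp-70 and, in the same order, -6.83, -7.06, -6.39 and -0.83. On ethanol, heated JTL611 held 294 ± 57.7 CPM of hsp-70 and 752 ± 228 CPM of hsp-16.1 (SD, n = 3). Heated CA1200 on auxin held 807 and 794 CPM. The strain difference thus also holds any difference between the strains without auxin, which was not tested.

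The 17 genes called only in the strain comparison, of which those named here were chosen after their values were seen, included the Hsp40 gene dnj-13, the zinc finger gene aip-1 and the glycogenin gene gyg-1. For dnj-13 the response was 0.22 (SE 0.08) in JTL611 and 1.29 in CA1200, with a plate difference within JTL611 of -0.65 (SE 0.12; limma adjusted p = 0.0589). For aip-1 it was 0.03 against 1.13, and for gyg-1 0.36 against 1.37. Their plate differences within JTL611 were smaller, -0.42 for aip-1 and -0.50 for gyg-1, and were not called. Y43F8B.2 and C13G3.1 of this set also rose in JTL611, Y43F8B.2 with 2.56 against 3.48 and C13G3.1 with 1.27 against 2.58. The strain difference of Y43F8B.2 lost its call without heated JTL611 replicate 2 or 3, unheated JTL611 replicate 1 or 3, heated CA1200 replicate 2 or 3 or unheated CA1200 replicate 2. Unheated levels, whose difference between strains was not tested, lay apart for Y94H6A.10, at 8.62, 9.37 and 9.34 CPM in JTL611 on auxin and 53.0 ± 15.9 CPM in CA1200 (SD, n = 3).

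In the other direction, 5 genes rose more in JTL611 than in CA1200. F55B11.7 was at 1.34, 1.03 and 1.41 CPM without heat and 9.18, 8.79 and 9.81 CPM with it in JTL611, 2.19 (SE 0.16), and had 0.89 in CA1200, so the difference was 1.298 (SE 0.22; limma adjusted p = 0.00292). For fil-2 the difference was 1.16 (SE 0.22; limma adjusted p = 0.0104), with heated means of 17.3 ± 2.17 CPM in JTL611 and 6.79 ± 0.730 CPM in CA1200 (SD, n = 3). WBGene00020381, F45D3.3 and C17F4.12 had differences of 1.08 (SE 0.22), 0.83 (SE 0.17) and 0.78 (SE 0.17). The call of C17F4.12 was lost with the replicate block (limma adjusted p = 0.0711). The count of 5 was 2 without heated JTL611 replicate 3, unheated JTL611 replicate 3 or unheated CA1200 replicate 1, was 3 without unheated JTL611 replicate 2, heated CA1200 replicate 3 or unheated CA1200 replicate 3, and was 4 in the other such fits. It was 3 and 2 with pseudocounts of 0.5 and 0.1 CPM, 1 with a filter of 5 CPM, 2 with limma-voom and 11 with the replicate block. The call of fil-2 was lost with a pseudocount of 0.5 CPM (limma adjusted p = 0.114). None of the 5 was among the 24 genes with a plate difference in JTL611. That difference was 0.75 for F55B11.7, 0.60 for fil-2, 0.22 for WBGene00020381, -0.07 for F45D3.3 and 0.30 for C17F4.12.

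Of the 254 genes that rose on auxin in JTL611 and were tested between strains, 19 differed from CA1200. In CA1200 198 of the 269 also rose, which is 73.6% of the JTL611 list and 17.7% of the 1118 genes raised in CA1200 among those tested in JTL611. Of the 648 that fell, 489 also fell in CA1200, which is 75.5% and 41.9%. On ethanol plates JTL611 itself had only 278 raised and 501 lowered genes. Why the CA1200 lists were longer was not tested, so their shares are not read here as a measure of a response lost on auxin. One heated CA1200 library, replicate 3, had 18.5% ribosomal RNA; without it 38 genes were lower and 3 higher in JTL611.

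**Figure D5:**
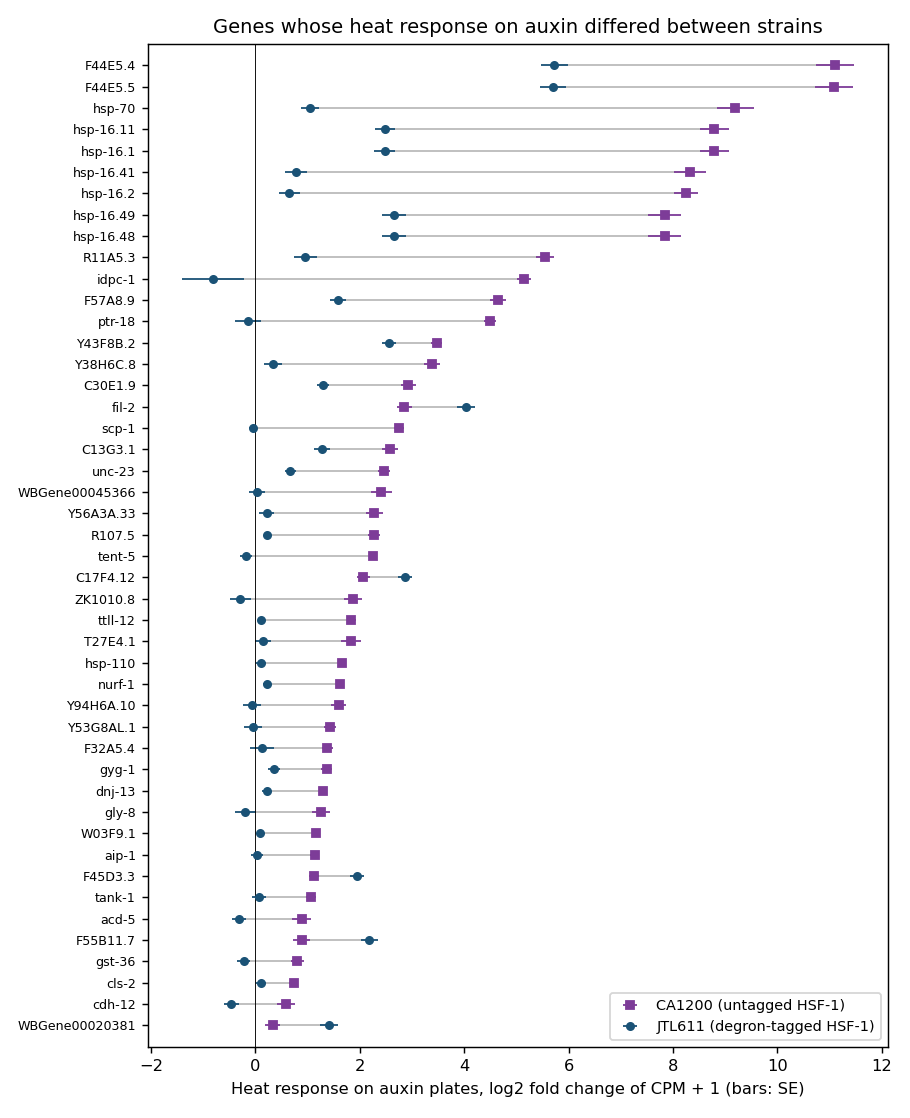
Log2 fold change of CPM + 1 with heat on auxin plates in JTL611 (circles) and CA1200 (squares) for the 46 genes whose response differed, with bars for the SE. CA1200 lies to the right for 41 genes, among them the 9 inducible heat shock protein genes, and JTL611 for 5, fil-2 and C17F4.12 among them.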

How the data were processed

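Poly(A)-selected, directional RNA-seq libraries were analysed, 12 of JTL611 and 12 of CA1200. Per the submitters' processing notes, the tools were STAR, featureCounts and edgeR (no versions) and the builds WBcel235 and ce11. The authors deposited log2 CPM values, 1 table per strain, scaled within the strain. Removing the log and an offset of 2 reads per average library gave linear CPM, and 100% of values lay within 0.05 of whole reads. Another 24 per-sample columns were not used. Log2(CPM + 1) of genes averaging 1 CPM or more was tested with limma 3.58.1 (R 4.3.3): a trended fit of group means to all 12 libraries, two-sided, Benjamini-Hochberg adjusted over all tested genes. For the strain comparison both tables were rescaled together by median ratios over the 12323 genes listed in both. The fit was tested on simulated data.

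Same-numbered heated and unheated libraries deviated together (correlations of 0.567, 0.273 and 0.277 on auxin and 0.310, 0.569 and 0.237 on ethanol). Pairs of different number within a plate type ran from -0.406 to 0.205. This is a pattern in the values that the labels do not state, and the replicate block was fitted as an alternative. The genes, lists and tests were chosen with earlier results of these data known. Genes named are the 9 inducible heat shock genes and hsf-1, the 10 largest rises and falls averaging 5 CPM or more in either group without overlap, up to 3 called members of each list, the 5 most abundant risers and fallers, and genes called between plates or at the ends of the strain difference; other names are list members or said to be chosen later. Ensembl release 115 of WBcel235 gave names and positions and held 12633 of the 12640 genes.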

Additional observations from a re-analysis of the deposited data

Results flagged for a closer look

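The heat response differed between auxin and ethanol plates of JTL611 for 24 genes, by limma's test of the difference itself, and all 24 were lower on auxin. The heat response on auxin differed between JTL611 and CA1200 for 46 genes by the same kind of test, 41 of them lower in JTL611.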

How the results depend on the processing

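The 917 genes called on auxin became 1471 with the replicate block, 1471 when the fit was limited to the 6 libraries compared, 2780 with both (added after seeing the data), and 447 to 648 with 1 library fewer (heated replicate 1, 2 or 3: 553, 511 and 584; unheated: 648, 447 and 515). The block kept 916 of the 917. The 779 genes called on ethanol became 1261 with the block, 283 in the fit to 6 libraries, 325 with both (added after seeing the data) and 449 to 906 with 1 library fewer (449 and 491 without unheated replicate 2 or 3). The 24 genes with a plate difference became 15 with limma-voom. The 46 genes of the strain difference ranged from 32 with a filter of 5 CPM to 57 with the block. The causes were not tested. Other pseudocounts, filters and scalings moved none of these 4 totals by over 1.5 times, and the median of all genes moved by under 0.1. Smaller counts moved more: with quantile scaling neuropeptide falls were 4 in place of 7, body wall muscle rises 3 in place of 1 and carboxylesterase falls 4 in place of 10. Of 108 named genes called on auxin, 76 kept the call under every alternative and 0 lost it with the block, which changed the call of 1 named gene in the strain difference, C17F4.12, and of none in the plate difference. Depth limits genes near 0.2 CPM.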

Other observations

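The families below were picked after their values were seen, so their counts are a description with no test. Patched-related genes, which encode sterol-sensing membrane proteins, fell on auxin in 9 of 17 cases and none rose, with a median log2 fold change of -0.74. Without heated replicate 2, unheated replicate 2 or unheated replicate 3 the count was 6, in the other fits with 1 library fewer it was 7, and with the replicate block it was 11. In ptr-14 the unheated auxin libraries were at 11.8, 15.5 and 12.9 CPM and the heated ones at 5.39, 3.54 and 4.14 CPM, without overlap, a change of -1.43 (SE 0.15; limma adjusted p = 8.48e-05). The neighbours vglu-2 and vglu-3, 1690 bases apart on chromosome III, fell by 1.37 (SE 0.14) and 1.199 (SE 0.20) on the log2 scale.

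Carboxylesterase (cest) genes fell in 10 of 26 cases and rose in 1. The number of falls was 4, 2 and 4 without heated replicates 1 to 3 and 3, 0 and 4 without unheated replicates 1 to 3. By chromosome, the share of tested genes that fell was 11.01% on chromosome X (174 of 1580), 7.12% on V, 4.58% on II, 4.49% on IV, 3.17% on III and 3.14% on I, beside 5.4% of all tested genes. The falls on the X numbered 100, 81 and 98 without heated replicates 1 to 3 and 110, 75 and 86 without unheated replicates 1 to 3, and 120 with quantile scaling.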
